A study of Homo sapiens with 6 samples.

Results

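The BCL2 family of apoptosis regulators was examined in the transcriptome of A549 cells, an established line of human lung adenocarcinoma, after knockdown of CEP20, a centrosomal protein. Members were the rows of the deposited expression table whose gene symbol was 1 of 10 family genes. They were the survival genes BCL2L1, BCL2L2 and MCL1 and the death genes BAK1, BAD, BID, BBC3, PMAIP1, BCL2L11 and BIK, out of 60624 genes in the table. All 10 passed the filter on low values, a mean of at least 1 TPM, the transcript level scaled so that each library adds up to 1000000, as did 14778 genes in all. RNA was sequenced from 3 siCEP20 samples, which received a small interfering RNA against CEP20 for 3 days, and from 3 siCTR samples, given a control siRNA equally long. Both groups were the same line, and the labels give the genotype of the siCTR samples as control. For all 6 samples 1 label field names a plasmid transfection instead of an siRNA. The methods list a pair of CEP20 siRNAs, and the labels do not say which of them these samples received. The labels do not state whether replicates came from separate cultures, so p-values measure only the spread between these samples.

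Apoptosis through mitochondria is decided by contacts between members of this family. BCL2L1 (BCL-XL), BCL2L2 (BCL-W) and MCL1 keep cells alive by holding BAK1, BAX and the BH3-only proteins, which share a single short helix with the family. When BH3-only proteins such as BID, BCL2L11 (BIM), BBC3 (PUMA), PMAIP1 (NOXA), BAD and BIK outweigh the survival proteins, BAK1 and BAX form pores in the outer mitochondrial membrane and cytochrome c is released. BCL-XL and MCL1 are common survival factors of epithelial tumors, and drugs that imitate the BH3 helix act on this balance.

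Spearman correlations between libraries were 0.986 to 0.989 within groups and 0.966 to 0.972 between them. CEP20 (ENSG00000133393) was at 29.2, 30.5 and 35.1 TPM in siCTR and at 16.2, 15.3 and 17.3 TPM in siCEP20 samples, so that 51.4% of the control level remained (log2 fold change -0.92, standard error (SE) 0.0915, adjusted p = 0.000205 by limma). The sequencing depth is unknown, and between 14429 and 14987 genes reached 1 TPM per library. The median log2 fold change (siCEP20 against siCTR) of all tested genes was 0.13, and changes relative to this median are given where they matter. Of 5 epithelial markers, 4 reached 1 TPM in every library, and EPCAM was low, at 0.83 to 1.24 TPM in siCTR and 3.01 to 3.85 TPM in siCEP20 samples. All 5 were higher in siCEP20 samples without overlap and passed the test, with CDH1 at 196% of control (log2 fold change 0.92, adjusted p = 0.000128), KRT8 at 144% (0.53, adjusted p = 0.000243), KRT19 at 124% and KRT18 at 116%. With median-of-ratios scaling KRT18 (adjusted p = 0.315) and KRT19 (adjusted p = 0.0785) no longer passed. Markers taken as high in A549 went both ways, each without overlap. AKR1B10 (log2 fold change -0.18, adjusted p = 0.0163), AKR1C1 (-0.33, adjusted p = 0.0019) and NQO1 (-0.21, adjusted p = 0.0055) were lower in siCEP20 samples. ALDH1A1 was higher (0.29, adjusted p = 0.0050). CDKN2A, which A549 cells have lost, was at most 0.61 TPM. Of 7 markers of leukocytes, endothelium, fibroblasts or alveolar cells, 6 stayed at or under 0.17 TPM and COL1A2 and DCN were listed at 0. COL1A1 was the exception, with 5.27 to 5.90 TPM in siCTR and 17.5 to 19.6 TPM in siCEP20 samples, and the part of cell makeup in the results was not tested.

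Of the 10 family members, 1 rose and 4 fell after CEP20 knockdown. BCL2L1 rose, and the other survival genes, MCL1 and BCL2L2, fell. Among the death genes BAD and BAK1 fell, and the other 5 did not pass the test. Here, rose and fell mean an adjusted p-value under 0.05 from limma with Benjamini-Hochberg adjustment over all tested genes. By this rule 30.2% of all tested genes rose and 13.2% fell. With a fold change over 1.5 or under 0.67 required as well, which is meant by called, 2 members (BAD and BAK1) were called lower and 0 were called higher by limma, while 2 (BCL2L1 and BID) were higher at an unadjusted p-value under 0.05. Of all tested genes, 4.61% were called lower and 11.2% higher. The groups did not overlap in 1 member that was higher and 4 that were lower in siCEP20 samples, and over all tested genes in 38.4% and 17%. Other scalings, which align the libraries on their typical gene (median of ratios), on their whole distribution (quantile) or after removing trends with transcript length and GC content, each called 3 members lower (MCL1, BAK1 and BAD) and 0 higher. The background of calls was then 7.59% lower and 5.92% higher with median-of-ratios scaling, 6.88% and 6.25% with quantile normalization, and 6.26% and 6.12% with a length and GC correction. The median log2 fold change was -0.34 for the survival genes and -0.09 for the death genes, against 0.13 for all tested genes. In bulk RNA, fewer cells with a transcript and less of it per cell cannot be told apart.

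**Figure D1:**
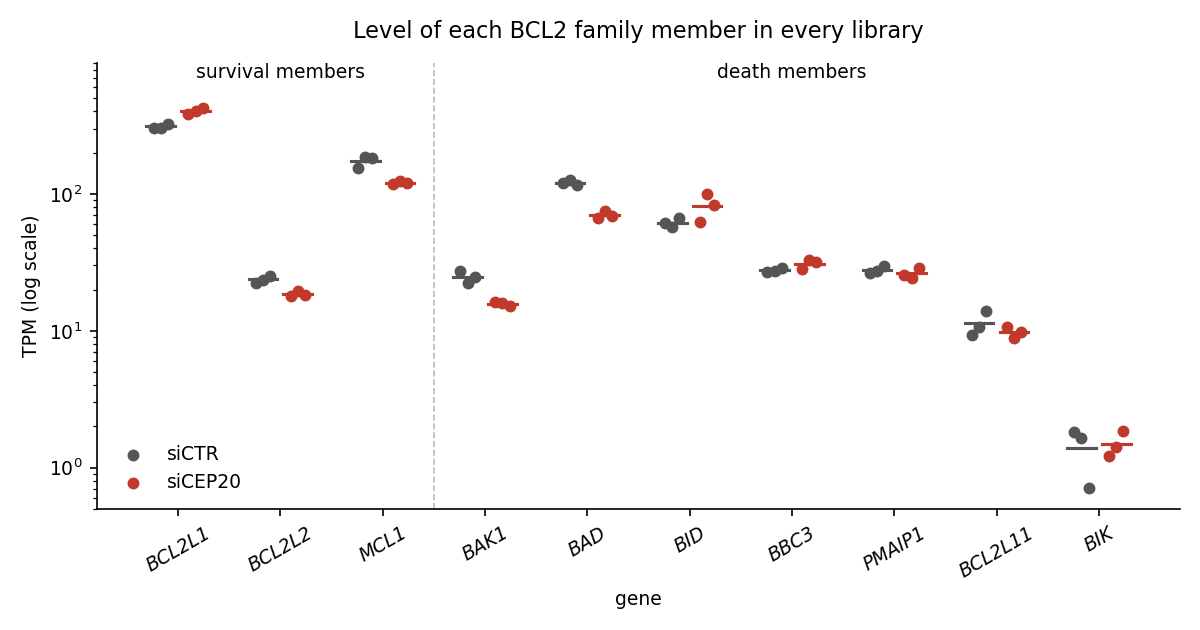
TPM (log scale) of the 10 members in each of the 3 siCTR and 3 siCEP20 libraries, with points for libraries and short lines for group means. BCL2L1 was the most abundant in every library and higher in siCEP20 samples, whereas MCL1, BCL2L2, BAK1 and BAD were lower and the other 5 overlapped.

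The regions upstream of 3 of these genes are shown, because BAD and BAK1 were the members called lower and BCL2L1 the 1 that rose. Each window is 300 bases of RefSeq sequence (GRCh38.p14) and runs from 250 bases before the start of the gene to 50 after it, 5′ to 3′ on the gene's own strand. Where RefSeq gave several starts (2 for BAD and 2 for BCL2L1), the start farthest upstream was taken. Windows were found for 7 of the 10 members, and those of MCL1, BCL2L2 and BIK were not analysed here. Capitals mark matches, on either strand, to 6 motifs. These were the GC box with the letters GGGCGG, the box named for its letters CCAAT, the TATA box with the letters TATAAA, the ETS core with the letters CCGGAAG, the cyclic AMP response element (CRE) by its name and the E-box with the letters CACGTG. No motif contains another in full. The windows lie at chr11:64284655-64284954 (minus strand) for BAD, chr6:33580227-33580526 (minus strand) for BAK1 and chr20:31723914-31724213 (minus strand) for BCL2L1.
BAD: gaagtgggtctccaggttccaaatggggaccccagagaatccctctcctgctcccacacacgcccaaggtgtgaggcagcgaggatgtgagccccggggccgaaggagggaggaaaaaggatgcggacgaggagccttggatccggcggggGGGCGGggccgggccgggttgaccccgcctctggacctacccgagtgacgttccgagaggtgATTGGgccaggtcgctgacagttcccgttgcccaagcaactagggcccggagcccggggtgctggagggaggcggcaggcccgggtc
BAK1: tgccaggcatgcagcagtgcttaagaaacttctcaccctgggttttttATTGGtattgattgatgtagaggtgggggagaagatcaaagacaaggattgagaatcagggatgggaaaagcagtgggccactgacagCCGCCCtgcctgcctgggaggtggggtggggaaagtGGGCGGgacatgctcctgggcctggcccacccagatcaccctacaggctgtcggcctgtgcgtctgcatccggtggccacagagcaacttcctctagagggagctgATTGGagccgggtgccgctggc
BCL2L1: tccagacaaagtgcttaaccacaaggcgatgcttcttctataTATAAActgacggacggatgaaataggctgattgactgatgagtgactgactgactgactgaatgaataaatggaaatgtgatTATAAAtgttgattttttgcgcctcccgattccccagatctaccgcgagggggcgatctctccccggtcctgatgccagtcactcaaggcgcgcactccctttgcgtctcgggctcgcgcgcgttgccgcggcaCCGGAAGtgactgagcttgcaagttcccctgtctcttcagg

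The windows of BAD and BAK1 both held GC boxes and CCAAT boxes, 1 of each in BAD and 2 of each in BAK1. Over 35116 RefSeq windows of the same length, 45.0% held a GC box and 34.6% a CCAAT box. The BCL2L1 window held neither, and instead 2 TATA boxes, which 11.5% of windows held, and 1 ETS core, which 10.3% held. GC content was 68.3% for BAD, 58.7% for BAK1 and 52.0% for BCL2L1. None of the 3 windows matched the CRE, found in 1.85% of windows, or the E-box, found in 7.26%. Of the windows not shown, that of BCL2L11 held 3 GC boxes and 1 CCAAT box, and that of PMAIP1 held 4 GC boxes. The BBC3 window held 1 CCAAT box and 1 E-box, and the BID window held none of the motifs. These members did not pass the test, so GC and CCAAT boxes were not limited to members that fell. Letters that match a motif describe the window and say nothing of binding in these cells.

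BCL2L1 encodes BCL-XL, with a shorter splice form that favors death, and the table gives a single value for the gene. It lies on chromosome 20 from 31664452 to 31723989 (hg38, minus strand; ENSG00000171552). BCL2L1 measured 305, 303 and 325 TPM in the siCTR libraries against 380, 400.4 and 424 TPM in the siCEP20 libraries. Every siCEP20 sample lay above every siCTR sample. The mean rose from 311 ± 11.8 to 401 ± 21.7 TPM (SD, n = 3 each), which was 129% of control (log2 fold change 0.37, SE 0.0575, adjusted p = 0.00156). Set against the shift shared by all genes it was 0.23, and with libraries scaled by the median of ratios it was 0.21 (adjusted p = 0.0161), so that part of the size depends on the scale. BCL2L1 was above 97.5% of tested genes in mean TPM, while its fold change was above 72.9% of them. The antisense RNA ABALON, which overlaps BCL2L1, was at most 5.81 TPM.

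MCL1, a survival protein with a short life that binds BAK1, BCL2L11 and PMAIP1, moved the other way. It lies on chromosome 1 from 150560895 to 150579738 (hg38, minus strand; ENSG00000143384). MCL1 measured 155, 187 and 182 TPM in the siCTR libraries against 118, 124 and 119 TPM in the siCEP20 libraries. The groups did not overlap, and the siCEP20 values were the closer together. The mean fell to 69.0% of control, from 174 ± 17.3 to 120.3 ± 3.29 TPM (log2 fold change -0.53, SE 0.0775, adjusted p = 0.00115). This was short of the fold threshold for a call. The threshold was passed in 4 of 15 alternative settings, with -0.68 after median-of-ratios scaling, -0.58 after quantile normalization, -0.71 after the length and GC correction and -0.61 without siCTR replicate 1.

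BCL2L2, the least abundant survival member, lies on chromosome 14 from 23298790 to 23311751 (hg38, plus strand; ENSG00000129473). BCL2L2 measured 22.5, 23.6 and 25.1 TPM in the siCTR libraries against 17.9, 19.5 and 18.4 TPM in the siCEP20 libraries, with no overlap. This was a log2 fold change of -0.34 (SE 0.0768, adjusted p = 0.00904). BCL2L2 shares its strand and exons with the readthrough gene BCL2L2-PABPN1, which was at 10.8 ± 1.65 TPM in siCTR and 12.3 ± 2.90 TPM in siCEP20 samples. When both rows were summed, a choice made after seeing the data, the log2 fold change was -0.16 and did not pass the test (adjusted p = 0.178). BCL2L2 therefore passed the test for its own row only, and how reads were divided between these rows was not tested.

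BAK1 is the pore-forming effector among the members, held in check by MCL1 and BCL-XL. It lies on chromosome 6 from 33572547 to 33580293 (hg38, minus strand; ENSG00000030110). BAK1 measured 27.5, 22.2 and 24.6 TPM in the siCTR libraries against 16.3, 16.1 and 15.1 TPM in the siCEP20 libraries. All siCEP20 values were below the lowest siCTR value. The mean fell from 24.8 ± 2.66 to 15.8 ± 0.627 TPM, or 63.9% of control (log2 fold change -0.61, SE 0.0928, adjusted p = 0.00134). BAK1 was called in 14 of 15 alternative settings. Without siCTR replicate 1, its highest sample, the log2 fold change was -0.54 (adjusted p = 0.00426), under the fold threshold.

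BAD, which binds BCL-XL and BCL-W when it is not phosphorylated, had the largest decrease of the 10. It lies on chromosome 11 from 64269830 to 64284704 (hg38, minus strand; ENSG00000002330). BAD measured 119, 126 and 116 TPM in the siCTR libraries against 66.4, 75.3 and 68.5 TPM in the siCEP20 libraries. The gap between the groups was wider than the range within either. The mean fell from 120.6 ± 5.15 to 70.0 ± 4.62 TPM, or 58.1% of control (log2 fold change -0.78, SE 0.0674, adjusted p = 0.000114). Its log2 fold change lay at percentile 2.51 of all tested genes, and BAD was called lower in 15 of 15 alternative settings, with values between -0.93 and -0.74. GPR137 overlaps BAD on the opposite strand and was at 64.1 ± 1.26 TPM in siCTR and 70.0 ± 2.87 TPM in siCEP20 samples, a log2 fold change that did not pass the test (adjusted p = 0.121).

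BID, which is cleaved by caspase-8 and carries death receptor signals to mitochondria, was the least even member after knockdown. It lies on chromosome 22 from 17734138 to 17774770 (hg38, minus strand; ENSG00000015475). BID measured 60.8, 56.9 and 66.3 TPM in the siCTR libraries against 62.7, 100.5 and 82.3 TPM in the siCEP20 libraries. The first siCEP20 sample lay within the siCTR range and the other two above it. The log2 fold change was 0.39 with a 95% interval from 0.04 to 0.74, and the adjusted p-value of 0.0720 missed the threshold. BID did not pass in 13 of 15 alternative settings. The log2 fold change was smaller with median-of-ratios scaling (0.23, adjusted p = 0.223) and without siCEP20 replicate 2 (0.23). BID also missed the threshold with quantile normalization (adjusted p = 0.122) and with the length and GC correction (adjusted p = 0.133). It passed only without siCEP20 replicate 1 (log2 fold change 0.56, adjusted p = 0.00728) and with protein-coding genes only (0.40, adjusted p = 0.0397).

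BBC3 (PUMA) and PMAIP1 (NOXA) are BH3-only genes induced by stress signals, and BCL2L11 (BIM) is induced by FOXO factors. In hg38 BBC3 (ENSG00000105327) lies on chromosome 19 from 47220822 to 47232766, PMAIP1 (ENSG00000141682) on chromosome 18 from 59899996 to 59904305 and BCL2L11 (ENSG00000153094) on chromosome 2 from 111119378 to 111168444. BBC3 measured 26.9, 27.3 and 28.6 TPM in the siCTR libraries against 28.4, 32.8 and 31.6 TPM in the siCEP20 libraries. PMAIP1 measured 26.6, 27.5 and 29.5 TPM in the siCTR libraries against 25.5, 24.2 and 29.0 TPM in the siCEP20 libraries. The groups overlapped in both genes. The 95% interval of the log2 fold change ran from -0.02 to 0.33 for BBC3 (adjusted p = 0.131) and from -0.29 to 0.11 for PMAIP1 (adjusted p = 0.450), so a change to 1.5 times the level in either direction lay outside both intervals.

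BCL2L11 measured 9.38, 10.7 and 13.96 TPM in the siCTR libraries against 10.6, 8.91 and 9.74 TPM in the siCEP20 libraries. These values overlapped, and the third siCTR sample was the highest of the 6. The log2 fold change was -0.19, with a 95% interval from -0.51 to 0.14 (adjusted p = 0.325). MIR4435-2HG, a long noncoding RNA on the opposite strand that overlaps BCL2L11, was more abundant and fell from 77.9 ± 3.85 to 52.5 ± 3.86 TPM (log2 fold change -0.56, adjusted p = 0.000668). The libraries were stranded by the methods, but the use of strand in quantification is not stated, and the part of this RNA in the BCL2L11 values was not tested. BIK, a BH3-only protein of the endoplasmic reticulum (chromosome 22 from 43110750 to 43129712; ENSG00000100290), was barely expressed, at 1.81, 1.64 and 0.705 TPM in siCTR and at 1.21, 1.41 and 1.85 TPM in siCEP20 samples. Its 95% interval, from -0.44 to 0.62, was the widest of the 10 and covered both directions (adjusted p = 0.783).

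**Figure D2:**
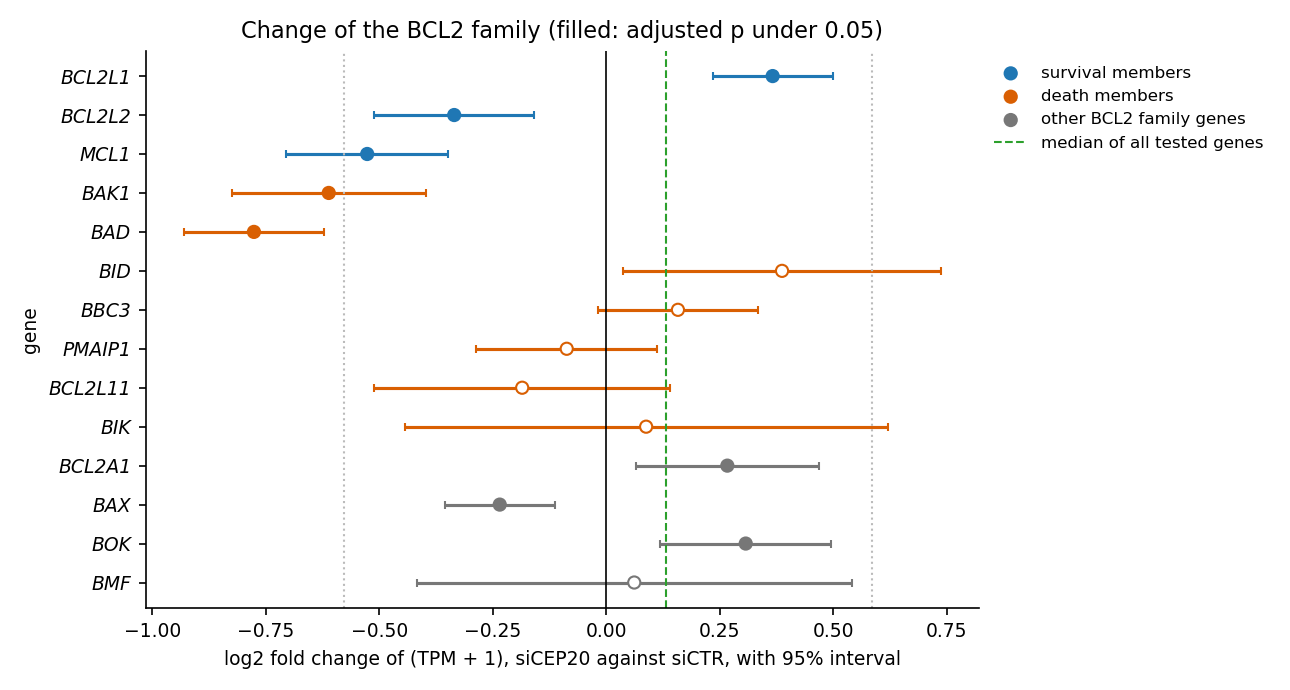
Log2 fold change of TPM + 1 (siCEP20 against siCTR) with its 95% interval for the 10 members and the 4 other BCL2 family genes that were tested. Filled points passed an adjusted p-value of 0.05, dotted lines are the fold thresholds, and the dashed line is the median of all tested genes at 0.13; BAD and BAK1 lie past the lower threshold.

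Of the 7 other BCL2 family genes 4 were tested, and 2 were higher and 1 lower, beside 30.2% and 13.2% of all tested genes. BAX, the second pore-forming effector, was the most abundant death gene of all. It measured 349.7, 373 and 359 TPM in the siCTR libraries against 292, 314 and 313 TPM in the siCEP20 libraries. BAX fell without overlap to 85.0% of control (log2 fold change -0.23, adjusted p = 0.00820), and this held in 15 of 15 alternative settings. BOK, a BAX-like gene, rose from 20.1 ± 0.290 to 25.2 ± 2.25 TPM (log2 fold change 0.31, adjusted p = 0.0172), and the survival gene BCL2A1 from 23.9 ± 1.87 to 29.0 ± 2.15 TPM (0.27, adjusted p = 0.0393). With median-of-ratios scaling BOK (0.16, adjusted p = 0.180) and BCL2A1 (0.12, adjusted p = 0.286) kept their sign but did not pass. BMF was at 3.22 ± 0.578 and 3.48 ± 1.18 TPM and did not pass (adjusted p = 0.833). BCL2 itself ranged from 0.2001 to 0.561 TPM, and HRK and BCL2L10 from 0 to 0.232 TPM, below the filter in both groups.

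Survival genes were set against death genes within each library, as a description with no test. The summed TPM of the 3 survival genes was 482, 514 and 531 in siCTR samples and 516, 544 and 561 in siCEP20 samples. The sum of the 7 death genes was 272.3, 272.5 and 279.9 in siCTR samples and 211, 259 and 238 in siCEP20 samples. The total over all members was 784 ± 28.6 TPM in siCTR and 777 ± 42.8 TPM in siCEP20 samples (SD, n = 3 each), which overlapped. The ratio of survival to death sums was 1.77, 1.89 and 1.90 in siCTR samples and 2.44, 2.099 and 2.36 in siCEP20 samples, higher without overlap.

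This ratio depended on its largest members. In sums chosen after seeing the data, without BAD it was 3.30 ± 0.188 in siCTR and 3.28 ± 0.305 in siCEP20 samples, and the groups overlapped. Without BCL2L1 it was 0.720 ± 0.0629 against 0.591 ± 0.0458, lower in siCEP20 samples. Without the most abundant member of each side, BCL2L1 and BAD, it was 1.29 ± 0.142 against 0.843 ± 0.0831. The geometric means of both sides, which weigh members equally, gave ratios of 5.11 ± 0.439 and 4.98 ± 0.163, and the groups overlapped. With BAX and BOK added to the death genes and BCL2A1 to the survival genes, also chosen after seeing the data, the ratio was 0.813 ± 0.0289 in siCTR and 1.00 ± 0.0378 in siCEP20 samples. The direction of the ratio differed between these ways of summing.

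What changed in every library was the makeup of each side. BCL2L1 took 63.3%, 59.1% and 61.1% of the survival TPM in siCTR samples and 73.7%, 73.6% and 75.5% in siCEP20 samples. The share of MCL1 went from 34.2 ± 2.15% to 22.3 ± 0.900%. On the death side the share of BAD went from 43.9 ± 2.42% to 29.8 ± 1.49%, and that of BID from 22.3 ± 1.41% to 34.3 ± 4.55%. BID thus replaced BAD as the most abundant of the 7 in 2 of 3 siCEP20 libraries. The level of BID itself did not pass the test (limma, adjusted p = 0.0720).

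Single pairs were compared as well, since the proteins bind selectively. The ratio of BCL2L1 to MCL1 was 1.97, 1.62 and 1.79 in siCTR samples and 3.23, 3.23 and 3.55 in siCEP20 samples. BCL2L1 to BAD, the survival protein and its BH3-only partner, went from 2.59 ± 0.197 to 5.75 ± 0.434, and BCL2L1 to BAK1 from 12.7 ± 1.37 to 25.5 ± 2.39. Both were higher in every siCEP20 library than in any siCTR library. MCL1 to BAK1, whose members both fell, was 7.14 ± 1.42 in siCTR and 7.62 ± 0.343 in siCEP20 samples and overlapped. MCL1 to PMAIP1, its selective BH3-only partner, was 5.81, 6.79 and 6.15 in siCTR samples and 4.62, 5.12 and 4.11 in siCEP20 samples, and MCL1 to BBC3 went from 6.32 ± 0.554 to 3.90 ± 0.212. The groups did not overlap in either ratio. MCL1 to BCL2L11 overlapped, at 13.0 to 17.4 in siCTR and 11.1 to 13.9 in siCEP20 samples. These are ratios of RNA levels and not of protein.

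**Figure D3:**
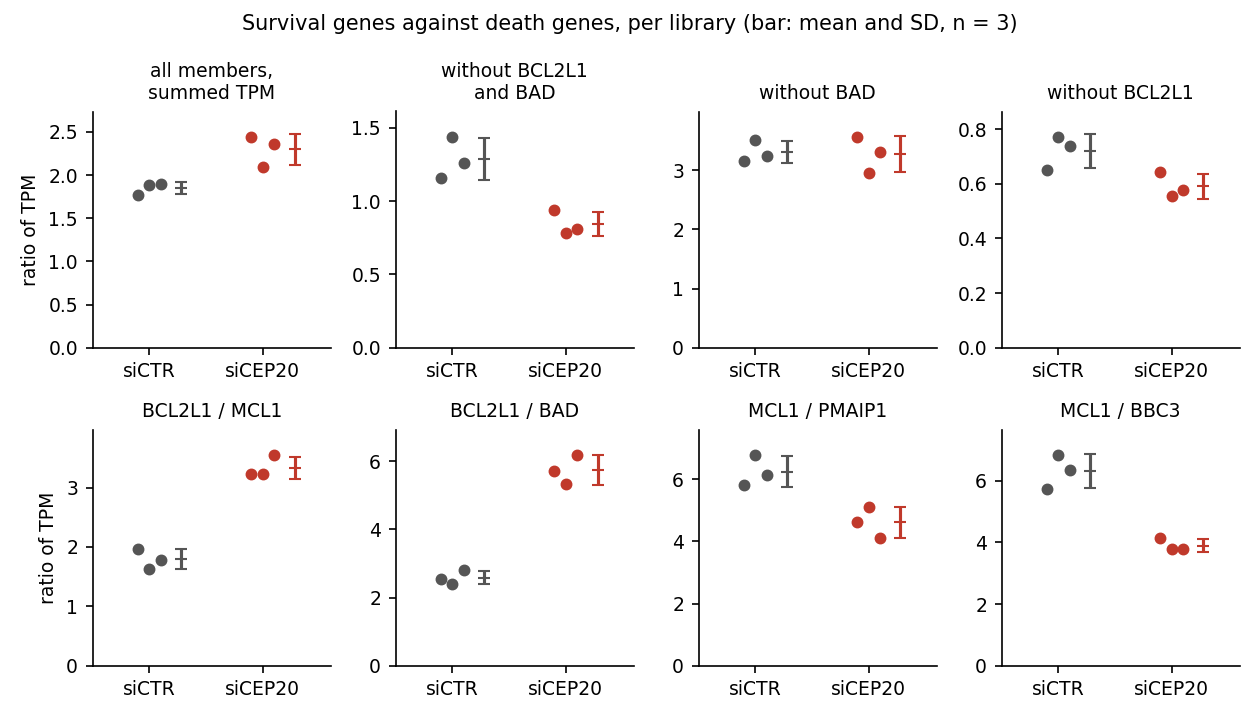
Ratios of TPM in each siCTR and siCEP20 library, with the mean and SD (n = 3) beside the points; the upper row divides summed survival genes by summed death genes and the lower row divides single genes. The ratio of sums was 1.77 to 1.90 in siCTR and 2.099 to 2.44 in siCEP20 samples with all 10 members and lay lower in siCEP20 samples once BCL2L1 was left out.

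Other genes of the apoptosis pathway were followed in lists of 75 genes, of which 67 were tested. At an adjusted p-value under 0.05, 17 were higher and 14 lower, beside 30.2% higher and 13.2% lower over all tested genes. Of the 67, 5 were called higher and 3 lower, beside 11.2% and 4.61% of all tested genes. The median log2 fold change of the 67 was 0.01, or -0.12 relative to all tested genes. With median-of-ratios scaling, 8 were higher and 25 lower at the same threshold, where 19.7% of all tested genes were higher and 21.8% lower. With the fold threshold added, 43.8% of all called genes were higher on that scale, against 70.9% with unscaled TPM.

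Of 10 tested genes of the death receptor pathway 5 were lower and 2 higher, beside 13.2% and 30.2% of all tested genes. With median-of-ratios scaling 8 of the 10 were lower and 1 higher, where 21.8% of all tested genes were lower and 19.7% higher. The list median was -0.26 in the limma fit on unscaled TPM (log2 fold change). TNFRSF10A and TNFRSF10B encode the receptors for TRAIL, which activate caspase-8 and through it BID. TNFRSF10A fell from 50.7 ± 2.21 to 30.5 ± 1.54 TPM (log2 fold change -0.72, adjusted p = 0.000182) and TNFRSF10B from 412 ± 30.3 to 272 ± 7.94 TPM (-0.60, adjusted p = 0.000273), and both were called lower. CFLAR, the inhibitor of caspase-8 at these receptors, fell from 65.3 ± 2.68 to 47.3 ± 2.87 TPM (-0.46, adjusted p = 0.00132). TNFRSF10C, a decoy receptor, was called higher at low levels, from 1.59 ± 0.455 to 3.76 ± 0.811 TPM.

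Downstream of mitochondria, 3 of the 9 tested genes of the apoptosome and caspase list were higher and 1 lower. Over all tested genes the shares were 30.2% and 13.2%. With median-of-ratios scaling 1 gene of this list was higher and 2 were lower. CASP6, a caspase that cleaves lamins, rose from 13.1 ± 0.498 to 16.7 ± 0.538 TPM (0.33, adjusted p = 0.00974), although it did not pass with median-of-ratios scaling or quantile normalization (adjusted p = 0.0947 and 0.0967). CYCS, which encodes cytochrome c, fell from 75.6 ± 2.48 to 61.2 ± 0.834 TPM (-0.30, adjusted p = 0.00376).

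Among the inhibitors of apoptosis and their antagonists, 1 of 8 was higher and 2 lower, beside 30.2% and 13.2% of all tested genes. HTRA2, a mitochondrial protease that antagonizes these inhibitors, was called lower, from 46.7 ± 4.85 to 29.9 ± 2.41 TPM (log2 fold change -0.62, adjusted p = 0.00131). XIAP, which blocks caspases directly, fell from 28.5 ± 2.72 to 21.1 ± 3.55 TPM (-0.43, adjusted p = 0.0280), and the giant inhibitor BIRC6 rose from 16.4 ± 2.20 to 22.6 ± 2.44 TPM (0.45, adjusted p = 0.0165). XIAP passed in 11 and BIRC6 in 12 of 15 alternative settings. HTRA2 came short of the fold threshold without siCTR replicate 2 (-0.54). TNFRSF10B did so without siCTR replicate 2 (-0.57), without siCTR replicate 3 (-0.56) and without siCEP20 replicate 1 (-0.58). It also did so with quantile normalization (-0.57), whereas TNFRSF10A was called each time.

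Partners of the family at mitochondria and the endoplasmic reticulum fell in 4 of 8 cases and rose in 0 by limma, beside 13.2% and 30.2% of all tested genes. The counts were the same 4 and 0 at an unadjusted p-value under 0.05. With median-of-ratios scaling 8 of 8 fell, where 21.8% of all tested genes were lower. With quantile normalization 5 of 8 fell, where 2938 of 14778 tested genes were lower. With the length and GC correction 5 of 8 fell, where 3143 of 14737 tested genes were lower. TMBIM6, also called BAX inhibitor 1, fell from 500.3 ± 24.7 to 373 ± 21.9 TPM (log2 fold change -0.42, adjusted p = 0.00111). BCAP31, a membrane protein of the endoplasmic reticulum cleaved by caspase-8, fell from 387 ± 33.7 to 272 ± 13.5 TPM (-0.51, adjusted p = 0.001015), and MTCH2, the mitochondrial receptor of truncated BID, from 94.9 ± 2.15 to 79.7 ± 2.56 TPM (-0.25, adjusted p = 0.00790). In the list of BCL2-like and BNIP genes 2 of 7 were higher and 0 lower by limma, beside 30.2% and 13.2% of all tested genes. At an unadjusted p-value under 0.05 the counts were 2 and 1. With median-of-ratios scaling or quantile normalization 0 were higher and 1 lower. The 2 higher by limma were BECN1, an autophagy protein with a BH3 helix (0.27, adjusted p = 0.0303), and BCL2L13 (0.24, adjusted p = 0.0331). Neither passed with median-of-ratios scaling (adjusted p = 0.252 and 0.455). BCL2L12 (-0.20, adjusted p = 0.0835) was the gene that passed as lower with median-of-ratios scaling (-0.35, adjusted p = 0.0033) and quantile normalization (-0.27, adjusted p = 0.0133).

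MCL1 is controlled largely by breakdown of the protein. Of 9 genes that act on MCL1 or NOXA turnover, 2 were higher and 0 lower by limma, beside 30.2% and 13.2% of all tested genes. The counts were 3 and 0 at an unadjusted p-value under 0.05, and 1 and 1 with median-of-ratios scaling. USP9X, a deubiquitinase that stabilizes MCL1, rose from 32.8 ± 2.60 to 45.3 ± 3.22 TPM (log2 fold change 0.46, adjusted p = 0.00346), and BTRC, a subunit of a ubiquitin ligase for MCL1, from 9.51 ± 0.873 to 12.3 ± 1.52 TPM (0.34, adjusted p = 0.0426), the latter not with median-of-ratios scaling (adjusted p = 0.196). UBE2J2 missed the threshold (adjusted p = 0.0546). Among regulators of BH3-only genes and proteins, 5 of 12 were higher and 1 lower, beside 30.2% and 13.2% of all tested genes. With median-of-ratios scaling 4 of these regulators were higher and 2 lower. PIM1, a kinase that phosphorylates BAD, was called higher, from 23.96 ± 1.28 to 36.8 ± 2.25 TPM (0.60, adjusted p = 0.000640), and passed the fold threshold in 9 of 15 alternative settings. PIM1 came short of it with median-of-ratios scaling (0.45), quantile normalization (0.47) and the length and GC correction (0.51). YWHAZ, a 14-3-3 protein that holds phosphorylated BAD in the cytosol, fell from 524 ± 32.0 to 376 ± 24.7 TPM (-0.48, adjusted p = 0.000924).

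**Figure D4:**
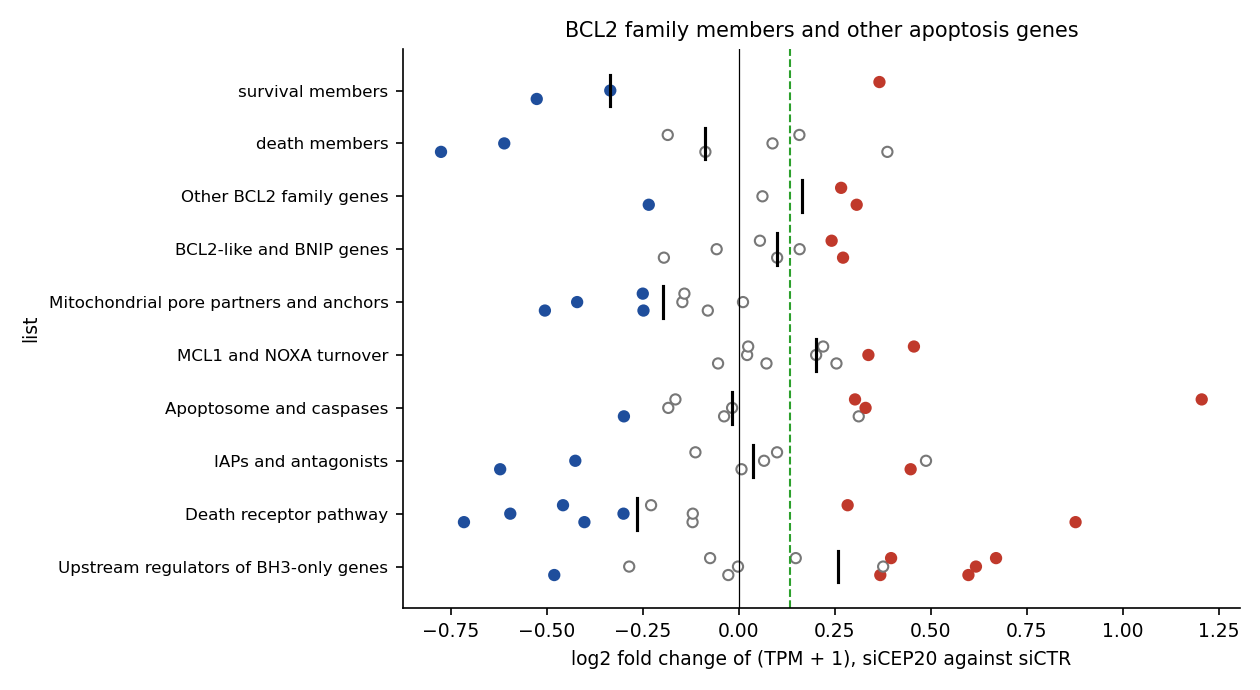
Log2 fold change of TPM + 1 (siCEP20 against siCTR) of every tested gene in the member groups and the other apoptosis lists. Red points rose and blue points fell by the test, open points did not pass it, black bars are list medians and the dashed line is the median of all tested genes (0.13); the death receptor list has a median of -0.26.

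**Figure D5:**
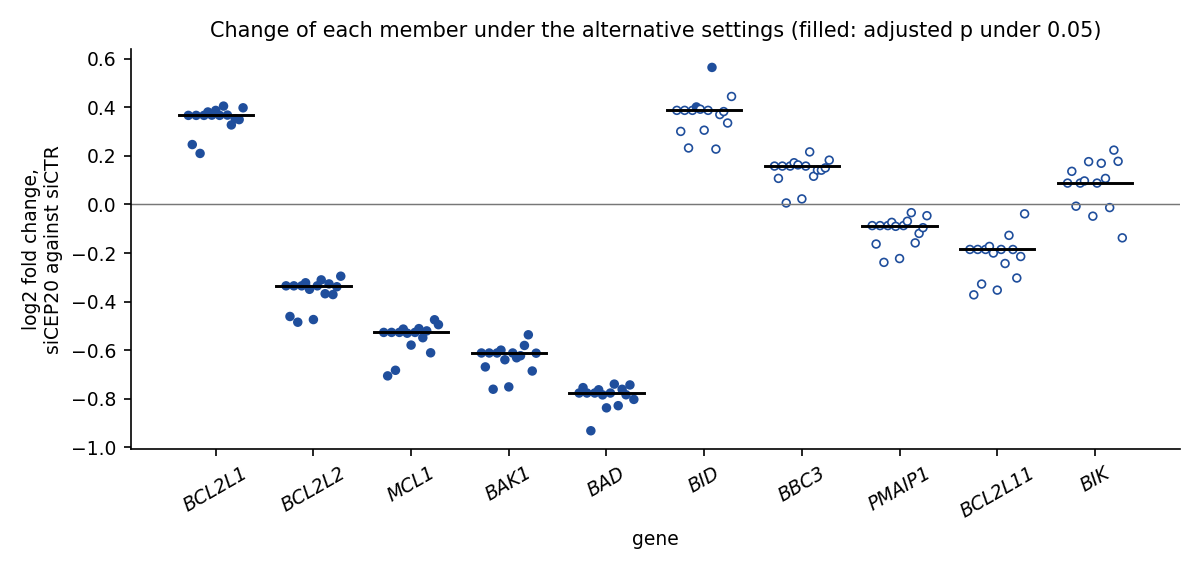
Log2 fold change (siCEP20 against siCTR) of each member under each alternative setting (points, filled where the adjusted p-value was under 0.05), with the reported value as a black line. BCL2L1, BCL2L2, MCL1, BAK1 and BAD kept their sign and stayed past the threshold in all 15 settings, while BIK lay on either side of 0.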

How the data were processed

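RNA-seq of 3 siCEP20 and 3 siCTR samples of A549 cells was analysed. The authors used fastp 0.20.1, HISAT2 2.1.0 (hg38) and StringTie 2.0, and the deposited values are TPM for each Ensembl gene; the annotation release is not given in the sources used here. TPM keeps no read depth, so precision comes from the spread between 3 replicates per group, which eBayes moderates across all tested genes.

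Genes were placed with GENCODE 44. Genes averaging 1 TPM or more were tested by limma 3.58.1 (R 4.3.3) on log2(TPM + 1), using eBayes with a trend and Benjamini-Hochberg adjustment over all of them. This scale understates changes of low genes. Calls used the study's thresholds, a fold change above 1.5 or below 0.67 with an adjusted p below 0.05. Named genes were all members, CEP20, overlapping genes, the other BCL2 family genes and the 3 genes of each other list with the smallest adjusted p. TNFRSF10C was added after its values were seen, and some genes that the rule names are not reported here. Members and lists were chosen with earlier results of these data known. The fit was tested on simulated data. Alternatives were another pseudocount, other filters, other scalings (median of ratios, quantile), an untrended eBayes, a replicate block, protein-coding genes alone, a loess correction for length and GC, and leaving out each library. Tables and figures were made in Python 3.11.15.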

Additional observations from a re-analysis of the deposited data

How the results depend on the processing

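Of 149 values of the 10 members under the alternative settings, 143 kept their direction and their side of an adjusted p of 0.05. BIK turned lower with median-of-ratios scaling (-0.0074) and quantile normalization (-0.048), and ranged from -0.14 to 0.22 with 1 library left out, being lower without siCEP20 replicate 3 (-0.013) or siCTR replicate 3 (-0.14). Members called lower numbered 2 and members called higher 0 with any 1 library left out, and without the fold threshold the counts were 4 and 1. The log2 ratio of siCEP20 to siCTR for survival over death sums was 0.31 and lay between 0.27 and 0.38 with 1 library left out. It turned to -0.61 without the most abundant member of each side. With geometric means it was -0.033, and the groups overlapped. In sums chosen after seeing the data it was -0.014 without BAD, where the groups overlapped, and -0.28 without BCL2L1.

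Of all tested genes, 1659 were called higher and 682 lower. The counts were 875 and 1121 with median-of-ratios scaling, 923 and 1016 with quantile normalization, 902 and 922 with the length and GC correction, and 4457 and 1944 without the fold threshold. With 1 library left out, 1381 to 1905 were higher and 613 to 706 lower. In the other apoptosis lists, 5 genes were called higher and 3 lower, against 2 and 7 with median-of-ratios scaling, 2 higher with quantile normalization, 2 and 6 with the length and GC correction, and 17 and 14 without the fold threshold. With 1 library left out they were 4 to 5 and 1 to 3. The cause of these shifts between scalings was not tested.

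The replicate numbers are shared between groups, but deviations of same-numbered samples correlated at 0.157, -0.0614 and -0.0623, so the numbers were not taken as pairs. With the replicate number as a block, 1654 genes were called higher and 694 lower, 2 members were called lower and 0 higher, and the other lists held 5 and 3. TPM without depth limits what can be said of members near 1 TPM, such as BIK.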
